A study of Mus musculus with 3 samples.

Results

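Some cells of B16F10 tumours that passed a gate for natural killer (NK) cells carried many transcripts of Gzmc, the gene of granzyme C. These Gzmc-high cells of the NK gate are described here by day and against the rest of the gate. Of 10243 barcodes in 3 single-cell libraries, 8139 had at least 1500 unique molecular identifiers (UMIs, each 1 counted transcript) and under 10% mitochondrial UMIs. The NK gate took 720 of these: at least 2 UMIs of Ncr1 and Klrb1c together, none of the T cell genes Cd3d, Cd3e and Cd8b1, and none of the macrophage gene Csf1r. Within the gate, 56 cells had at least 5 UMIs of Gzmc and are called Gzmc-high, and 664 had fewer and are called Gzmc-low. The cells were thus chosen by measured values, so levels of Gzmc and of the gate's genes are given as a description and were not tested.

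All groups were C57BL/6 mice with subcutaneous B16F10 melanoma that received Pmel-1 cytotoxic T cells, which recognise the melanoma antigen gp100, into a vein on day 9 after inoculation. Tumours were taken 3, 7 or 14 days after that transfer, and CD45+ leukocytes of 3 mice per day were pooled into 1 library with the 10x Genomics 3' kit, version 3.1. The labels name both a cell sorter and magnetic beads for the CD45 step, and tumours without transfer were not analysed here. With 1 library per day, the day after transfer, the age of the tumour, the mice and the library cannot be told apart, and days were compared without a test. The contrast of Gzmc-high with Gzmc-low cells was made inside each library and tested over the 3 libraries, so its p-values measure the spread between 3 pools taken at different days.

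Granzymes are serine proteases that cytotoxic lymphocytes release together with perforin to kill target cells. Gzmc lies in a cluster with Gzmb, Gzmd, Gzme, Gzmf and Gzmg, and its transcripts are known from cytotoxic T cells after prolonged stimulation and from some tissue-resident lymphocytes. Conventional NK cells circulate, depend on the transcription factor Eomes and carry the integrin Itga2, while type 1 innate lymphoid cells (ILC1) stay in tissues and carry the integrin Itga1, the chemokine receptor Cxcr6 and the death ligand Tnfsf10.

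The Gzmc gene lies at chr14:56231441-56234656 on the minus strand (GRCm38, GENCODE M21), and the promoters of 4 members of the cluster are shown because the same cells carried Gzmc, Gzmd and Gzme together. RefSeq held all 6 members of the cluster looked for, on build GRCm38.p6. Each line is the 250 bases before the RefSeq start, 5' to 3' on the minus strand, and capitals mark matches, on either strand, of the Runx motif TGTGGT. Matches of the AP-1 motif, spelled TGANTCA, are in capitals too. The windows are chr14:56234658-56234907 for Gzmc, chr14:56132594-56132843 for Gzmd, chr14:56120626-56120875 for Gzme and chr14:56262335-56262584 for Gzmb.
Gzmc: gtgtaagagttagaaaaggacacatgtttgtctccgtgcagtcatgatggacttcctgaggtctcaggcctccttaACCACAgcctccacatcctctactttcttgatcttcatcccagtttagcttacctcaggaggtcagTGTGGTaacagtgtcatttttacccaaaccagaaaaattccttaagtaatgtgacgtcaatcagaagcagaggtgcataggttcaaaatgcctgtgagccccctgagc
Gzmd: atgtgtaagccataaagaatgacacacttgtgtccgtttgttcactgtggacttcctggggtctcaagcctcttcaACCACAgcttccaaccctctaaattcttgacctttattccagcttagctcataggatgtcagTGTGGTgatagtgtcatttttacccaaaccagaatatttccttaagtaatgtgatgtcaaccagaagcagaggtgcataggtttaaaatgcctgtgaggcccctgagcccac
Gzme: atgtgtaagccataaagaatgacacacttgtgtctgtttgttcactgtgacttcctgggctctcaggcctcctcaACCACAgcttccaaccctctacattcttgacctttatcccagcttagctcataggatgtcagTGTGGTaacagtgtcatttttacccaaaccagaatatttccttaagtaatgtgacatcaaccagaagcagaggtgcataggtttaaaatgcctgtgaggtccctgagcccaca
Gzmb: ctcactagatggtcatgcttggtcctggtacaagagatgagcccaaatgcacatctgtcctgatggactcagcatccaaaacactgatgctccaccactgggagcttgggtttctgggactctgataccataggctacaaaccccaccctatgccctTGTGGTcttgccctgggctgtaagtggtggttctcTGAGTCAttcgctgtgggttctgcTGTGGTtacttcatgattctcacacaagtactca
Each of the 6 windows, those of Gzmf and Gzmg included, held 2 matches of the Runx motif on either strand, at 174 and 108 bases before the start in Gzmc, and 14.0% of 32841 RefSeq windows of the same length held at least 1. The AP-1 motif was found in the window of Gzmb and in none of the other 5, against 6.75% of all windows. Searched on both strands, the TATA box letters TATAAA were in none of the 6 windows, against 12.4% of all windows. A STAT motif, spelled TTCNNNGAA, was likewise in none of the 6, against 7.02% of all windows. The T-box motif searched, with the letters AGGTGTGA, was in none of the 6, against 1.12% of all windows. The Gzmc window was 80.5% identical to that of Gzmd and 80.9% to that of Gzme, the latter pair were 94.8% identical, and the Gzmb window was 44.1 to 47.2% identical to the others. At the 3' ends, where this kit reads, the last 300 bases of the longest Gzmc transcript shared no stretch of 50 bases with the transcripts of Gzmd, Gzme, Gzmf or Gzmg, nor did those of Gzmb with any of the other 5. Gzmd shared 8.76% of such stretches with Gzmf and 5.18% with Gzmg, and Gzmf shared 9.16% with Gzmg, so the split of UMIs among Gzmd, Gzmf and Gzmg is less certain than the counts of Gzmc.

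Gzmc-high cells were 6 of 189 NK-gate cells at day 3, 32 of 382 at day 7 and 18 of 149 at day 14. These shares were 3.17% (1.17 to 6.78), 8.38% (5.80 to 11.6) and 12.1% (7.32 to 18.4), with exact 95% Clopper-Pearson intervals that cover counting error only. The interval of day 14 lay above that of day 3, and that of day 7 overlapped both. This separation was not firm. With a cut of 5 Gzmc UMIs per 10000, day 3 reached up to 8.17% and day 14 down to 7.86%. The 2 intervals also overlapped with a cut of 3 UMIs, in cells of 5000 UMIs or more and with cells thinned to 1500 UMIs. They overlapped as well under the stricter T cell gate described below. In CD8 T cells, gated in the same way with at least 2 UMIs of Cd3d and Cd3e together, at least 1 of Cd8b1 and none of Ncr1, the same cut took 36 of 346 cells (10.4%), 45 of 469 (9.59%) and 9 of 375 (2.40%), so the share was highest at day 14 in the NK gate and lowest at day 14 in CD8 T cells. No cell of a macrophage gate (2 or more UMIs of Csf1r, 1008, 714 and 989 cells) reached 5 Gzmc UMIs, and its highest cell held 3, 2 and 1.

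**Figure D1:**
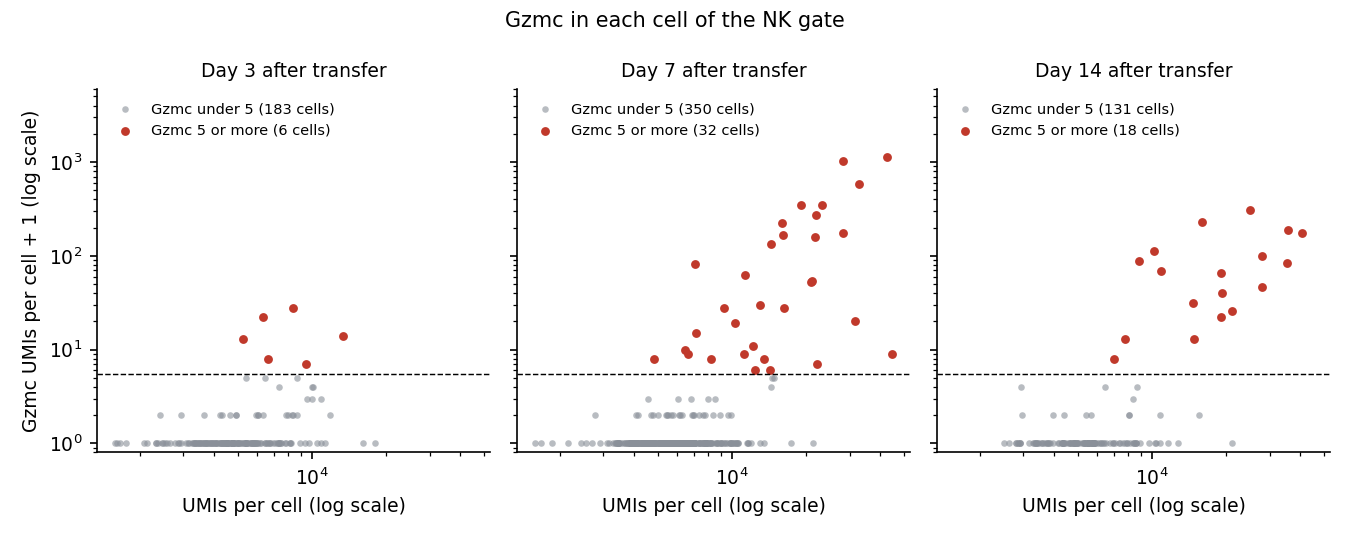
Gzmc UMIs plus 1 of each cell of the NK gate (vertical axis, log scale) against its total UMIs (horizontal axis, log scale) at days 3, 7 and 14; the dashed line is the cut of 5 UMIs. The 6, 32 and 18 Gzmc-high cells (red) lie mostly to the right of the Gzmc-low cells (grey), and the highest reaches 1116 UMIs at day 7.

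Within the Gzmc-high cells the level of Gzmc spread widely. The 6 cells of day 3 held 6 to 27 UMIs (median 12.5), the 32 of day 7 held 5 to 1116 (median 28) and the 18 of day 14 held 7 to 304 (median 65.5). Per 10000 UMIs of the cell the medians were 16.7, 23.4 and 28.5. They held 65.6%, 99.1% and 98.8% of all Gzmc UMIs of the gate. Near the cut, 2, 10 and 1 cells held 5 to 9 UMIs and 6, 3 and 3 cells held 3 or 4. The cells were also deeper: their median totals were 7506, 15189 and 19035 UMIs against 4785, 5679 and 5341 in Gzmc-low cells. With every cell thinned to 1500 UMIs, genes per cell were 784, 752 and 759 against 814, 802 and 778, and a cut on Gzmc per 10000 UMIs (5 or more) took 8, 28 and 19 cells.

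Shared barcodes, doublet scores and T cell genes were measured beside these values. Of the 56 cells, 7, all of day 7, had a barcode also found in another library, where it held 503 to 925 UMIs, 1.63 to 2.37% of its day 7 total and under the depth minimum. All 7 held 21845 to 44524 UMIs and so were among the 12 Gzmc-high cells of day 7 with over 20000. No Gzmc-high cell of day 14 had a shared barcode, and the deepest there held 40525 UMIs. Leaving out shared barcodes thus also took deep cells from day 7 alone, and the part of depth was not tested. The 7 cells included 5 of the 8 cells with the most Gzmc (228 UMIs or more). Without them Gzmc was at 4751 CPM (counts per 1000000 UMIs of the summed cells) at day 7 in place of 8787 CPM, with a median of 27 UMIs per cell in place of 28, and the share of Gzmc-high cells at day 7 was 6.68%. None of the 56 was among the cells with the highest doublet scores. Of 10 T cell markers, Cd4, Cd5 and Cd6 were at 0 in all 56 cells, while Cd6 had a UMI in 80.0% of Gzmc-high CD8 T cells of day 7. The other 7, Cd3g, Trac, Trbc1, Trbc2, Cd8a, Cd28 and Lat, were each found in Gzmc-high cells of day 7, with up to 12 UMIs of Cd3g in a cell. The summed level of the 10 T cell markers was 1013, 1499 and 943 CPM in Gzmc-high and 1424, 1413 and 1265 CPM in Gzmc-low cells, and at day 7 a single cell held 253 of 399 UMIs of Trbc2. Asking also for no UMI of Cd3g, Trac, Cd4 and Cd8a left 4, 17 and 12 of the 6, 32 and 18 Gzmc-high cells. It left 154, 261 and 106 of the 183, 350 and 131 Gzmc-low cells, which were shallower. Results that changed with this stricter gate are named where they occur.

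The working name "NK and ILC1-like" was not settled by the markers. The NK genes Ncr1 and Klrb1c were part of the rule, so their presence supports no name, and of the 5 other NK and ILC1 markers tested 3 were lower (Itga2, Eomes and Klrk1) and 0 higher. Ncr1, the activating receptor NKp46, was found in 4 of 6, 31 of 32 and 17 of 18 Gzmc-high cells, at 263, 545 and 491 CPM against 493, 530 and 526 CPM in Gzmc-low cells. Klrb1c, which encodes NK1.1, was at 425, 222 and 183 CPM against 611, 589 and 589 CPM and lay lower in each library. Itga1 had a UMI in 1, 8 and 2 of the cells, at 20.3, 26.4 and 5.54 CPM against 10.3, 23.0 and 23.9 CPM, and the contrast did not pass (log2 fold change -0.18, SE 0.46, edgeR adjusted p = 0.828). Itga2 was at 0, 5.28 and 19.4 CPM against 74.0, 81.1 and 58.4 CPM and was lower (log2 fold change -2.71, SE 0.43, edgeR adjusted p = 6.58e-05), though its call was lost without day 7. Eomes was lower too, at 142, 141 and 128 against 322, 255 and 285 CPM (log2 fold change -0.94, SE 0.18, edgeR adjusted p = 0.000616), a call lost with cells thinned and without cells holding Mki67 or Top2a. Tbx21, the T-box factor shared by NK cells and ILC1, had 101, 98.5 and 85.9 against 120.2, 143 and 127 CPM and did not pass (adjusted p = 0.135). Since both integrins were scarce, the cells are called by their rule.

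Across all 6228 genes tested, 668 were higher (10.7%) and 507 lower (8.14%) in Gzmc-high than in Gzmc-low cells, at an adjusted p under 0.05 of edgeR's quasi-likelihood test on UMIs summed per library and class. Of these 1175 genes, 972 had the same sign in each of the 3 libraries, and the median over all genes was -0.02 on the log2 scale. The count rests on day 7, with 32 of the 56 cells: without that library 92 genes were higher and 61 lower, without day 14 the counts were 196 and 147, without day 3 they were 984 and 763, and DESeq2 called 169 and 120. All the genes called that could be tested without day 3 or day 14 kept their direction, as did 1142 of 1144 without day 7. With every cell thinned to 1500 UMIs, 583 of the 598 that could be tested kept their direction, and 77 genes were higher and 67 lower.

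Among granzyme and killing genes, Gzma was lower, and transcripts of the genes beside Gzmc were found in some cells. Of its 17 genes 12 could be tested, of which 2 were higher and 3 lower (median -0.24). Gzma, a tryptase-like granzyme, was at 2977, 3408 and 2434 CPM in Gzmc-high cells against 7471, 7181 and 6461 CPM in Gzmc-low cells, lower in all 3 libraries (log2 fold change -1.24, SE 0.14, edgeR adjusted p = 4.71e-07), and its call held in all 17 alternatives. Gzmb, which cleaves caspases, was at 2349, 2700.4 and 1078 against 1975, 1222 and 1035 CPM (log2 fold change 0.55, SE 0.17, edgeR adjusted p = 0.0272). Prf1, the pore protein perforin, was at 1438, 1567 and 1051 against 1081, 912 and 930.5 CPM (log2 fold change 0.51, SE 0.15, edgeR adjusted p = 0.0163). Neither call was firm: 7 and 8 of 17 alternatives ended the call, among them leaving out day 7 or day 14 and thinning, which turned Prf1 to -0.26, and for Prf1 also leaving out the shared barcodes. Fasl, a death receptor ligand, and the granule protein Nkg7 were lower (-1.34 and -0.76, adjusted p = 7.60e-05 and 0.000588).

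The other cluster granzymes were found in a few Gzmc-high cells. A UMI of Gzmd, Gzme, Gzmf or Gzmg was found in 1 of 6, 10 of 32 and 3 of 18 Gzmc-high cells and in 0 of 183, 2 of 350 and 0 of 131 Gzmc-low cells. At day 7 the sums over the Gzmc-high cells were 1197 UMIs of Gzmd, 389 of Gzme, 178 of Gzmg and 37 of Gzmf. At day 14 they were 4, 4, 0 and 1, and at day 3 a single cell held 22 UMIs of Gzmf and the other 3 genes were at 0. The 7 day 7 cells with a UMI of Gzmd held 11 to 417 each, and they held 173 to 1116 UMIs of Gzmc. Without the shared barcodes, 3 cells with 80 UMIs of Gzmd, 3 with 43 of Gzme and 0 with Gzmg were left at day 7, so most of these UMIs came from 4 cells. The 22 day 7 cells without any of the 4 genes held 5 to 164 UMIs of Gzmc (median 12), against 27 to 1116 (median 309) in the 10 with one. Not every cell high for Gzmc carried Gzmd, Gzme or Gzmg. A day 7 cell with 346 UMIs of Gzmc held, of the 4 genes, only 2 UMIs of Gzmf, and a day 14 cell with 188 had none of the 4. These 4 genes are described without a test, since they come from the cells chosen by Gzmc and few cells held them.

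Gzmc-high cells without an Eomes UMI mostly held little Gzma and less perforin than those with one, a split chosen after the cells had been seen and given without a test. Eomes was undetected in 1 of 6, 10 of 32 and 9 of 18 cells. Of these 20 cells, 16 held at most 2 UMIs of Gzma and the other 4 held 18 to 60, 1 held 10 or more UMIs of Prf1, and 15 held 10 or more UMIs of Xcl1, a chemokine that attracts cross-presenting dendritic cells. Among the 36 cells with Eomes, 6 held at most 2 UMIs of Gzma, 28 held 10 or more of Prf1, and 13 held 10 or more of Xcl1. Gzmc was high in both kinds of cell: its median was 22.0 against 38.1 per 10000 UMIs at day 7 and 20.2 against 33.7 at day 14, in cells without and with Eomes.

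At day 7, cells without Eomes summed to 172 CPM of Gzma, 292 of Prf1 and 3078 of Xcl1, against 4401, 1959 and 823 CPM in cells with Eomes. At day 14 the values were 524, 195 and 3227 against 3557, 1554 and 335 CPM. Prf1 was not absent from the cells without Eomes: 9 of 10 at day 7 and 7 of 9 at day 14 held a UMI, with medians of 4.5 and 2 UMIs per cell against 17.5 and 36 in cells with Eomes. The direction was the same at both days, while the single such cell of day 3 held 60 UMIs of Gzma. All 7 cells of day 7 with Gzmd were cells with Eomes. Of the list of ILC1 and tissue residence genes, 11 of 15 found at day 7 were in a larger share of the cells without Eomes than of those with it and 4 in a smaller one. At day 14, 12 of 16 were in a larger share and 0 in a smaller one, against 106 of 229 and 49 of 215 in a larger share over the genes of all lists. Cxcr6 was found in 6 of 10 against 0 of 22 cells at day 7 and in 6 of 9 against 1 of 9 at day 14. Il7r, the receptor of interleukin-7, was found in 5 of 10 against 2 of 22 and in 4 of 9 against 1 of 9. Rora, a nuclear receptor of innate lymphoid cells, was at 404 against 48.3 CPM and at 187 against 66.0 CPM, and Ccl1 at 262 against 9.20 and 2232 against 44.0 CPM, the day 14 value from 1 cell. Itga1, the integrin of ILC1, hardly differed, with a UMI in 3 of 10 against 5 of 22 and 1 of 9 against 1 of 9 cells. The list of circulating NK genes was mixed at day 7. Of 16 found, 10 were in a smaller share of the cells without Eomes and 6, Itga2, Klf2 and Ly6c2 among them, in a larger one. At day 14, 12 of 14 were in a smaller share and 2 in a larger one. Over the genes of all lists, 101 of 229 and 109 of 215 were in a smaller share. Of this list the killer receptors Klra4, Klra7 and Klra9 were in a smaller share at both days, Klra4 being found in 1 of 10 against 9 of 22 cells and in 1 of 9 against 6 of 9.

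**Figure D2:**
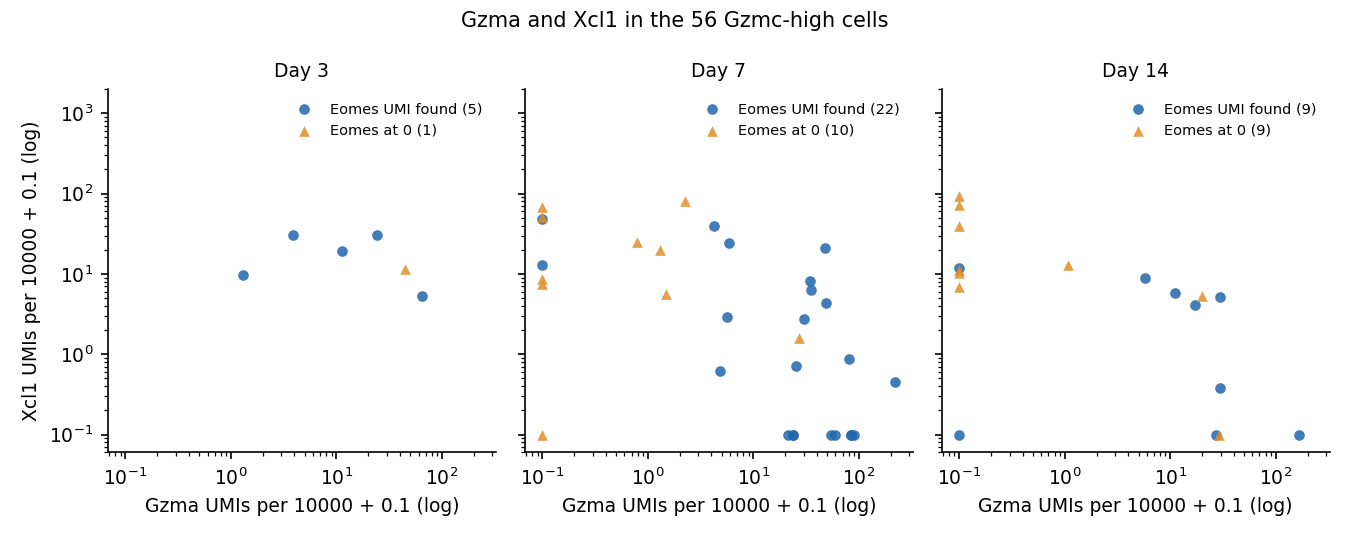
Gzma (horizontal axis) and Xcl1 (vertical axis) in each of the 56 Gzmc-high cells, in UMIs per 10000 UMIs of the cell plus 0.1 on log scales, at days 3, 7 and 14. Circles are cells with an Eomes UMI (5, 22 and 9) and triangles cells without (1, 10 and 9), which at days 7 and 14 lie mostly at the upper left.

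Depth and T cell genes moved with this division in part. Cells without Eomes were shallower, with median totals of 11859 against 16046 UMIs at day 7 and 10854 against 24956 at day 14. Among cells of at least 7000 UMIs, Gzma was at most 2 UMIs in 15 of 18 Gzmc-high cells without and 5 of 32 with Eomes, and in 8 of 29 Gzmc-low cells without and 11 of 119 with Eomes. Of T cell genes, Trac was found in 4 of 10 and 1 of 9 cells without Eomes and in 8 of 22 and 1 of 9 with Eomes, Cd3g in 0 of 10 and 4 of 9 against 4 of 22 and 1 of 9, and Ly6c2, which memory T cells share, in 7 of 10 and 4 of 9 against 4 of 22 and 1 of 9. Under the stricter T cell gate the division was still seen: Gzma was at 254 against 3057 CPM and 1059 against 4216 CPM, and Cxcr6 was found in 3 of 6 against 0 of 11 and in 3 of 5 against 0 of 7 cells.

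Genes of circulating NK cells were lower: of 16 tested, 14 were lower and 1, Klrg1, higher (median -1.45). Klf2, a factor that keeps lymphocytes in circulation, was at 344, 61.6 and 63.8 CPM against 947, 688 and 964 CPM, lower in each library and least so at day 3 (log2 fold change -3.17, SE 0.24, edgeR adjusted p = 1.66e-09). The killer cell lectin-like receptor Klra4 was at 344, 178 and 227 against 686, 844 and 699.5 CPM (log2 fold change -1.73, SE 0.18, edgeR adjusted p = 1.80e-07), and Klra7 and Klra8 were lower by the same test (-1.41 and -1.49). The chymase gene Cma1, which other cells of the gate carried at 50.4, 39.4 and 62.4 CPM, had 1 UMI in all Gzmc-high cells (log2 fold change -5.29, SE 0.71, edgeR adjusted p = 6.52e-06). These genes except Klra8, namely Klf2, Klra4, Klra7 and Cma1, kept their calls in every alternative that tested them. Klrg1, a receptor of matured NK cells, was at 20.3, 144 and 119 against 27.7, 33.3 and 45.1 CPM (log2 fold change 1.80, SE 0.27, edgeR adjusted p = 2.49e-05); it was lower at day 3, and the call was lost without day 7 and without cells holding Mki67 or Top2a. Without cells that held a UMI of Mki67 or Top2a, which left 5, 22 and 6 Gzmc-high cells, 10 of the 16 were lower and none higher. Among all 5231 genes tested there, 68 were lower and 94 higher.

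The list of ILC1 and tissue residence genes moved less, and none of its members passed on the high side under the stricter gate. Of 13 tested, 5 were higher and 0 lower (median 0.30). Rora was at 385, 132 and 111 against 52.4, 45.9 and 65.0 CPM (log2 fold change 1.60, SE 0.25, edgeR adjusted p = 4.69e-05), and Inpp4b, a lipid phosphatase gene, at 40.5, 29.9 and 61.0 against 6.17, 7.03 and 10.6 CPM (log2 fold change 2.38, SE 0.39, edgeR adjusted p = 8.65e-05). Inpp4b passed the filter on low counts only through its Gzmc-high sums. Rgs1, a brake on chemokine receptor signals, Il21r and Tnfsf10 were the other members that were higher (0.63, 1.48 and 1.42, adjusted p = 0.00242, 0.00498 and 0.0216). Under the stricter T cell gate none of the 11 members tested was higher, Rora had an adjusted p of 0.0877 by edgeR, and 2 were lower, Ahr and Cxcr3. Among all 5113 genes tested under that gate, 337 were higher and 274 lower. Inpp4b and Tnfsf10 had too few UMIs there to be tested. Xcl1 was at 1539, 1353 and 1406 against 1551, 1034 and 1118 CPM and did not pass (adjusted p = 0.147), which averages over the cells with and without Eomes described above.

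**Figure D3:**
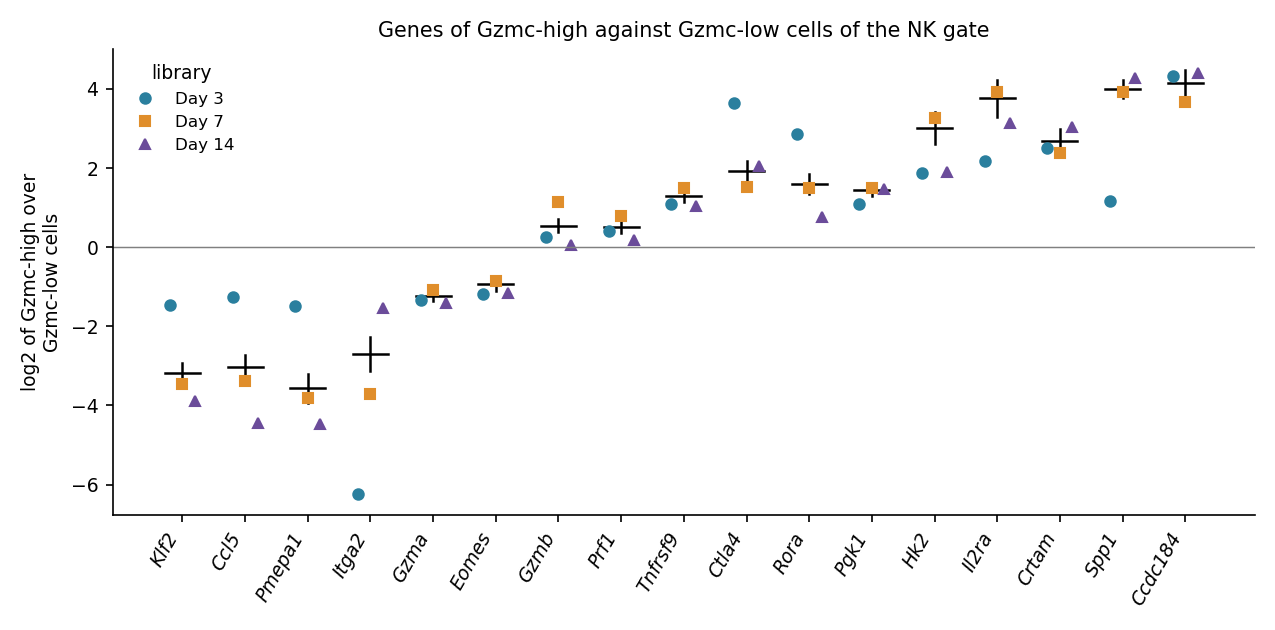
The log2 ratio of Gzmc-high over Gzmc-low cells (vertical axis) for 17 genes (horizontal axis): symbols are the ratio of CPM plus 1 in each library, and black crosses the edgeR log2 fold change with its SE. Klf2, Ccl5, Pmepa1, Itga2, Gzma and Eomes lie below 0 in all 3 libraries, and Tnfrsf9 through Ccdc184 above 0.

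Receptors and adaptors of NK cells were lower more often than higher. Of 18 tested, 8 were lower and 2 higher (median -0.37). Fcer1g, the adaptor of the Fc receptor, was at 1438, 1318 and 1306 against 2401, 2199 and 2210.0 CPM (log2 fold change -0.71, SE 0.13, edgeR adjusted p = 0.000471), and Klrk1, the receptor NKG2D, at 486, 438 and 549 against 735, 766 and 763 CPM (log2 fold change -0.58, SE 0.15, edgeR adjusted p = 0.00728). Hcst, the NKG2D adaptor, was lower as well (-0.99, adjusted p = 0.000224), as were Cd7, Klrc2, Klri2, Klre1 and Tyrobp. Cd96 and Slamf7 were higher (0.86 and 0.63, adjusted p = 0.0328 and 0.0362), and 9 and 10 of 16 alternatives ended their calls, DESeq2 and leaving out day 7 or day 14 among them. With DESeq2 4 of the 18 were lower and 0 higher, and 3 and 0 without day 7, where 120 of 6228 and 61 of 5948 genes were lower over all genes. Without cells holding Mki67 or Top2a, none of the 18 passed in either direction, where 94 of 5231 genes were higher and 68 lower over all genes.

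The chemokine genes Ccl3, Ccl4 and Ccl5 were lower, and Il2ra was higher. Ccl5 was at 4496, 851 and 449 CPM in Gzmc-high and 10747, 8952 and 9786 CPM in Gzmc-low cells (log2 fold change -3.02, SE 0.30, edgeR adjusted p = 1.08e-07), lower in each library and least so at day 3. Ccl3 was at 101, 70.4 and 338 against 561, 373 and 1019 CPM (log2 fold change -1.90, SE 0.19, edgeR adjusted p = 1.21e-07) and Ccl4 at 668, 570.0 and 818 against 1651, 1228 and 2896 CPM (log2 fold change -1.38, SE 0.16, edgeR adjusted p = 6.24e-07). These 3 chemokine genes kept their calls in all 17 alternatives, and with Flt3l they made 4 lower and 0 higher of 7 members tested in the cytokine list. Ifng, an NK cytokine that activates macrophages, was at 344, 130.2 and 227 against 338, 123 and 316 CPM and did not pass (adjusted p = 0.724).

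Il2ra, the high-affinity chain of the interleukin-2 receptor, was at 40.5, 56.3 and 19.4 CPM against 8.22, 2.81 and 1.33 CPM (log2 fold change 3.76, SE 0.47, edgeR adjusted p = 2.67e-06). Il2ra passed the filter on low counts only through its Gzmc-high sums, so the gap between the classes in every library was a condition of its being tested. Of 18 genes of cytokine receptors and signalling, 5 were lower and the receptors Il2ra and Il21r higher (median -0.31). The lower ones were the survival factor Bcl2 (527, 206 and 227 against 722, 544 and 544 CPM, log2 fold change -1.10, SE 0.17, edgeR adjusted p = 3.54e-05), the interleukin-18 receptor chains Il18r1 and Il18rap, the kinase Pim1 and the inhibitor Socs3. With DESeq2 2 of 18 were lower, 1 of 18 without day 7 and 2 of 19 without day 14, and without cells holding Mki67 or Top2a 1 of 17 tested was lower and none higher. Over all genes 120 of 6228, 61 of 5948, 147 of 6752 and 68 of 5231 were lower in these 4 settings. Pim1 was lower at days 7 and 14 and level at day 3.

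Inhibitory receptor and exhaustion genes moved both ways: 10 were tested, 2 of them higher and 2 lower (median -0.09). Tnfrsf9, the costimulatory receptor 4-1BB, was at 851, 647 and 322 against 402, 228 and 157 CPM (log2 fold change 1.30, SE 0.16, edgeR adjusted p = 3.33e-06). Ctla4 was at 101, 157 and 136 against 7.19, 54.3 and 31.9 CPM (log2 fold change 1.93, SE 0.25, edgeR adjusted p = 4.32e-06). Both were higher in each library and in every alternative that tested them. The nuclear receptor Nr4a2 was lower (-0.83, adjusted p = 0.000854), and so was the ectoenzyme Nt5e (-1.96, adjusted p = 0.0221), which was higher at day 3 and rested on 5 UMIs in Gzmc-high cells.

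Genes of the transforming growth factor beta response were lower more often than higher: 4 of 10 tested were lower and 1 higher (median -0.54). Pmepa1, a target and feedback inhibitor of the pathway, was at 60.8, 10.6 and 2.77 against 171, 163 and 82.3 CPM (log2 fold change -3.56, SE 0.37, edgeR adjusted p = 1.83e-07), and the signal transducer Smad3 at 20.3, 5.28 and 8.32 against 42.1, 44.0 and 34.5 CPM (log2 fold change -2.37, SE 0.48, edgeR adjusted p = 0.000924). The call of Pmepa1 was lost with cells thinned and that of Smad3 without day 7. Smad7 and Skil, inhibitors of the pathway, were lower by less (-0.62 and -0.75), with calls lost in 8 and 7 of 17 alternatives. Itgav, an integrin chain that activates the ligand, was higher (1.11), a call lost in 4 of 16. The count changed with the setting, as did the counts over all genes. In the list 1 of 10 was lower with DESeq2, 0 of 7 with cells thinned, 1 of 11 without day 7, 2 of 11 without day 14 and 2 of 10 without the shared barcodes. Over all genes these counts were 120 of 6228, 67 of 1850, 61 of 5948, 147 of 6752 and 340 of 5757.

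Proliferation genes were higher at days 7 and 14 and not at day 3. All 15 cell cycle genes tested were higher in the test over the 3 libraries (median 1.65), while the medians within libraries were -0.14, 1.81 and 2.16. With DESeq2 7 of 15 were higher, with cells thinned 2 of 7, 9 of 15 without day 7 and 10 of 16 without day 14. Over all genes the counts were 169 of 6228, 77 of 1850, 92 of 5948 and 196 of 6752. Mki67 was at 0, 144 and 266 CPM against 22.6, 7.5 and 13.3 CPM (log2 fold change 3.76, SE 0.37, edgeR adjusted p = 1.08e-07), a call lost with DESeq2 (adjusted p = 0.304). It was found in 0 of 6, 7 of 32 and 9 of 18 Gzmc-high cells and in 9 of 183, 7 of 350 and 5 of 131 Gzmc-low cells. Tyms, needed for DNA synthesis, was at 20.3, 93.2 and 183 against 8.22, 12.2 and 21.2 CPM (log2 fold change 2.99, SE 0.30, edgeR adjusted p = 1.08e-07), and Mcm3, of the replicative helicase, at 60.8, 125 and 172 against 32.9, 28.6 and 22.6 CPM (log2 fold change 2.33, SE 0.27, edgeR adjusted p = 8.33e-07). Summed over the 22 genes of the list, the level at day 3 was lower in Gzmc-high cells, at 2248 against 2642 CPM, and at day 7 it was higher, at 5404 against 2168 CPM, as at day 14, at 8772 against 2548 CPM. Thinned to 1500 UMIs per cell, Mki67 was found in 0, 2 and 4 Gzmc-high cells and in 4, 4 and 3 Gzmc-low cells. The median Gzmc-high cell held 2, 2.5 and 8 UMIs of the list per 1500, against 3 in Gzmc-low cells of each day, so the day 7 difference was not in the median cell.

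Glycolysis and biosynthesis genes were higher. Of 14 glycolysis and hypoxia genes tested, 10 were higher and 0 lower (median 1.02). Gapdh was at 3443, 3388 and 3222 against 1675, 1376 and 1416 CPM (log2 fold change 1.21, SE 0.14, edgeR adjusted p = 6.24e-07), Pgk1 at 587, 542 and 541 against 274, 193 and 195 CPM (log2 fold change 1.45, SE 0.16, edgeR adjusted p = 5.03e-07), and Ldha, which makes lactate, at 1418, 1001 and 1059 against 634, 479.8 and 471 CPM (log2 fold change 1.16, SE 0.14, edgeR adjusted p = 1.34e-06). Hk2, the inducible hexokinase, was at 40.5, 80.9 and 27.7 against 10.3, 7.5 and 6.64 CPM (log2 fold change 3.01, SE 0.40, edgeR adjusted p = 6.03e-06). For Gapdh, Pgk1 and Ldha every Gzmc-high library lay above every Gzmc-low library. Hk2 passed the filter on low counts only through its Gzmc-high sums, which fixed that order for it in advance. Its day 3 level rested on 2 UMIs, and the Hk2 call was lost without day 7. Of 15 genes of amino acid uptake and ribosome making, 11 were higher and 1, Slc3a2, lower (median 0.86), against 7 higher with DESeq2, 3 without day 7 and 4 of 16 without day 14. Without day 7, 5 of the 14 glycolysis and hypoxia genes were higher. Over all genes 169 of 6228 were higher with DESeq2, 92 of 5948 without day 7 and 196 of 6752 without day 14. Npm1, a nucleolar protein of ribosome assembly, was at 1600.0, 1573 and 1561 against 827, 703 and 739 CPM (log2 fold change 1.11, SE 0.14, edgeR adjusted p = 2.67e-06). Without cells holding Mki67 or Top2a, 6 of 12 glycolysis genes and 6 of 14 of the biosynthesis list were higher and none lower, and of the cell cycle list 3 of 11 were higher. Among all 5231 genes tested there, 94 were higher.

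**Figure D4:**
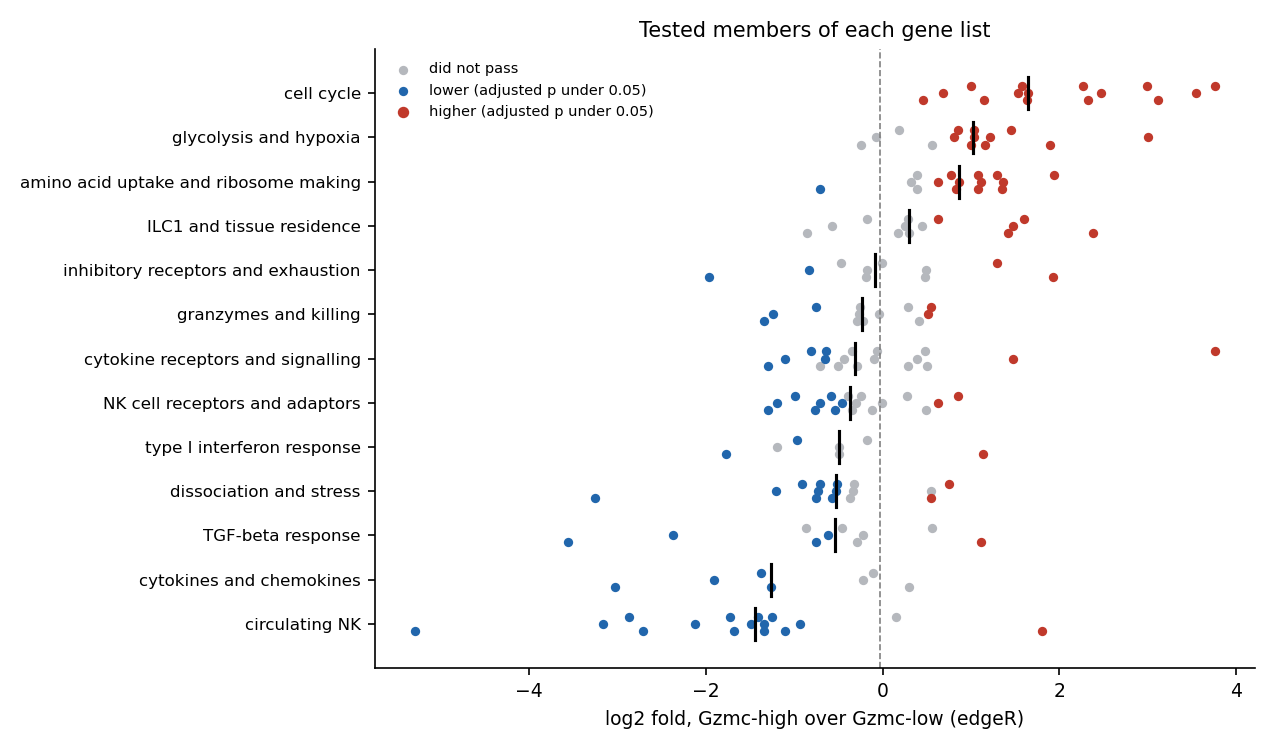
The edgeR log2 fold change of Gzmc-high over Gzmc-low cells (horizontal axis) of each tested member of 13 gene lists (rows); red and blue points passed at an adjusted p under 0.05, grey points did not, black bars are list medians and the dashed line the median of all genes. The cell cycle median lies at 1.65 and the circulating NK median at -1.45.

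The remaining lists moved little or in part. Of 7 type I interferon response genes (median -0.49), 1 was higher, Bst2, and 2 lower, Irf7 and Zbp1 (1.13, -1.77 and -0.97); the calls of Bst2 and Zbp1 were lost with DESeq2. Of 15 dissociation and stress genes, 9 were lower and 2 higher (median -0.53), and with DESeq2 2 were lower and 1 higher: Jun was at 446, 157 and 227 against 654, 381 and 689 CPM (log2 fold change -1.21, SE 0.17, edgeR adjusted p = 1.55e-05), and the chaperone genes Hsp90aa1 and Hspa8 were higher (0.75 and 0.54). Over all 6228 genes DESeq2 called 120 lower and 169 higher. The part of tissue handling was not tested. Among marker lists of other cell types, the antigen presentation genes Cd74, H2-Ab1 and H2-Eb1 were higher, the last with its call lost in 8 of 16 alternatives. Cd74 was at 142, 274 and 419 against 146, 72.6 and 92.9 CPM (log2 fold change 1.80, SE 0.23, edgeR adjusted p = 3.40e-06), and H2-Ab1 at 405, 44.0 and 136 against 44.2, 36.1 and 34.5 CPM (log2 fold change 1.65, SE 0.33, edgeR adjusted p = 0.000877). The dendritic and B cell markers Flt3, Xcr1, Ccr9, Siglech, Cd79a, Cd79b and Ms4a1 were at 0 in the Gzmc-high cells of every library, while Cd209a of the same list was found at day 7. A single cell held 75.0% of the day 3 UMIs of H2-Ab1, and at day 3 the Cd74 levels nearly coincided. The summed 12 markers were at 547, 366 and 704 CPM against 230, 146 and 159 CPM. The myeloid markers summed to 203, 204 and 225 CPM against 319, 237 and 214 CPM. Of gamma-delta T cell markers Tcrg-C4 was higher and Trdc lower (1.92 and -0.96), and no marker of neutrophils, mast cells, melanoma or red cells had enough UMIs to be tested. The part of RNA from other cells in these results was not tested.

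Of genes outside the lists, those with the largest differences of the same sign in each library were Ccdc184 and Spp1 on the high side. Ccdc184, a coiled-coil gene, was at 81.0, 137 and 161 CPM against 3.08, 9.84 and 6.64 CPM (log2 fold change 4.16, SE 0.31, edgeR adjusted p = 1.42e-09). It passed the filter on low counts only through its Gzmc-high sums, so its same sign in each library was fixed by that filter. Spp1, the secreted protein osteopontin, was at 40.5, 728 and 918 against 17.5, 47.3 and 46.5 CPM (log2 fold change 3.998, SE 0.23, edgeR adjusted p = 1.03e-11), and a single cell held 40.1% of its day 7 and 48.6% of its day 14 UMIs. Crtam, an adhesion receptor of activated lymphocytes, was at 81.0, 127 and 94.3 against 13.4, 23.4 and 10.6 CPM (log2 fold change 2.69, SE 0.28, edgeR adjusted p = 2.54e-07), with a single cell holding 75.0%, 51.4% and 58.8% of its UMIs at the 3 days, and both genes were still called without the top cell. The replication and division genes Clspn, Uhrf1, Aurkb and Hirip3 had log2 fold changes of 3.77, 3.75, 3.30 and 2.85, and Tubb6 and Tspan31 of 2.88 and 2.81. On the low side, beyond genes given above, stood the phosphodiesterase Pde2a at 0, 14.1 and 2.77 against 164, 151 and 134 CPM (log2 fold change -3.89, SE 0.36, edgeR adjusted p = 6.85e-08), the kinase Sgk1 (-3.91), the cholesterol exporter Abcg1 (-4.47), Gstm1 (-2.74) and Dhrs3 (-2.66). S1pr1, the receptor for exit into blood and lymph, was lower too (-2.87) and is already counted in the circulating NK list. Each of these 6 genes held 1 to 9 UMIs in all Gzmc-high cells together, Dhrs3 was level at day 3, and the calls of Sgk1, Gstm1, Dhrs3 and S1pr1 were lost without day 7.

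Between days, Gzmc-high cells of day 7 had more transcripts of division genes and fewer of Ccl5, Klf2 and Bcl2 than those of day 3. Here a gene counts as higher or lower by size alone, when its CPM differed at least 1.5-fold and the exact 95% counting interval did not reach 1. No test stands behind it, and both day comparisons share the day 7 library. Of 3809 genes with at least 20 UMIs, 82 were higher (2.15%) and 205 lower (5.38%) at day 7 than at day 3. Day 3 had 6 cells and 49374 UMIs in all, which sets the width of its intervals. Stmn1, a microtubule regulator of dividing cells, was at 0 at day 3 and 512 CPM at day 7, at least 8.43-fold higher against a floor of 3 counts. The cell cycle list had 8 of 20 higher and 0 lower, and without the shared barcodes 3 of 11 higher, with Stmn1 at 299.9 CPM at day 7. Gzmd was at 0 at day 3 and 2106 CPM at day 7, at least 34.7-fold higher, and at least 3.83-fold higher without the shared barcodes. Odc1, of polyamine synthesis, was at 122 and 554 CPM, 4.56-fold, 95% interval 2.07 to 12.5, and the calcium-binding S100a4 at 182 and 774 CPM, 4.25-fold, 95% interval 2.22 to 9.35. Lower at day 7 were Ccl5 (4496 and 851 CPM, 5.28-fold, 95% interval 4.48 to 6.2), Klf2 (344 and 61.6 CPM, 5.59-fold, 95% interval 2.94 to 10.3), the chromatin organiser Satb1 (628 and 194 CPM, 3.24-fold, 95% interval 2.1 to 4.87) and Bcl2 (527 and 206 CPM, 2.56-fold, 95% interval 1.6 to 3.94). At day 3 a single cell held 45.5% of the UMIs of Ccl5 and 41.2% of those of Klf2. Gzma, Prf1 and Gzmb were 1.14-, 1.09- and 1.15-fold higher at day 7, with intervals that included 1. Without the shared barcodes Gzma and Prf1 were lower at day 7 than at day 3 in level, at 2344 against 2977 CPM and 1039 against 1438 CPM, by less than 1.5-fold, and Gzmb was at 2390 CPM against 2349 CPM.

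From day 7 to day 14 the division genes were higher again, and Gzmb, Gzmd and Gzme were lower. Of 4954 genes, 201 were higher (4.06%) and 211 lower (4.26%). The cell cycle list had 11 of 22 higher and 0 lower, with Mki67 at 144 and 266 CPM, 1.85-fold, 95% interval 1.36 to 2.51, Stmn1 at 512 and 865 CPM, 1.69-fold, 95% interval 1.44 to 1.99 and Hmgb2, a chromatin protein of dividing cells, at 938 and 1727 CPM, 1.84-fold, 95% interval 1.64 to 2.07. Without the shared barcodes 17 of 21 were higher and 0 lower, and Mki67 was at 40.8 CPM at day 7. Gzmb was at 2700.4 and 1078 CPM, 2.5-fold, 95% interval 2.24 to 2.81 and lower at day 14, and the killing list had 0 of 16 higher and 7 lower. Gzmd was at 2106 and 11.1 CPM, 189.9-fold, 95% interval 74.0 to 698, and Gzme at 684 and 11.1 CPM, 61.7-fold, 95% interval 23.9 to 228. The sizes rested on the cells with shared barcodes, which were also among the deepest of day 7. Without those cells the day 7 levels of Gzmd and Gzme were 233 and 125 CPM, against 11.1 CPM for each at day 14. Gzmf was then at 2.91 against 2.77 CPM, Gzmg at 0 on both days and Gzmc at 4751 against 4436 CPM, so none of these 3 genes then counted as lower. The killing list had 6 of 14 lower without them, Gzmb, Gzmd and Gzme among these, and 1 higher, Lamp1. Tnfrsf9 was at 647 and 322 CPM, 2.01-fold, 95% interval 1.63 to 2.5, the glycolysis gene Hk2 at 80.9 and 27.7 CPM, 2.92-fold, 95% interval 1.45 to 6.49 and Nr4a1, an early activation gene, at 249.8 and 105 CPM, 2.37-fold, 95% interval 1.65 to 3.49, all lower at day 14, the interval of Hk2 reaching 1 without the shared barcodes. Klf6, a zinc finger factor, was at 125 and 385 CPM, 3.09-fold, 95% interval 2.3 to 4.17 and higher, and the methyltransferase Ezh2 at 84.4 and 177 CPM, 2.1-fold, 95% interval 1.42 to 3.12. Cd74, H2-Ab1 and H2-Eb1 were higher at day 14 as well, Cd74 by 1.44-fold without the shared barcodes and so under the fold rule. Cells without Eomes made up 10 of 32 cells at day 7 and 9 of 18 at day 14, and the part of this mix in the day values was not tested. Without the top cell of each gene, 200 genes were higher and 25 lower at day 7 than at day 3, and 128 higher at day 14 than at day 7. That removal took the Gzmc-high sums from 49374 to 30211 UMIs at day 3 and from 568437 to 495107 at day 7. At day 14 it took them from 360688 to 299212. CPM still used the full totals, so the removal itself shifted the ratios, most of all those of day 7 over day 3. These counts thus cannot show how far the day results rest on single cells.

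The Gzmc-high contrast of the NK gate differed from the same contrast in CD8 T cells for genes of division and glycolysis and for Ccl3 and Ccl4. The difference was tested as an interaction over 12 sums, with Gzmc-high and Gzmc-low CD8 T cells cut at the same 5 UMIs. Of 8126 genes, 219 had a larger contrast in the NK gate (2.7%) and 56 a smaller one (0.689%), at an adjusted p under 0.05, and 59 and 10 without day 7, or 92 and 20 without the shared barcodes. Cell cycle genes made up 18 of 22 tested on the larger side and 0 on the smaller. Mki67 had log2 contrasts of -4.56, 4.10 and 4.23 in the NK gate and -0.72, 0.78 and 0.21 in CD8 T cells at days 3, 7 and 14 (difference 3.56 on the log2 scale, SE 0.54, edgeR adjusted p = 0.000854). Its call was lost with DESeq2 (adjusted p = 0.394). The day 3 value of the NK gate rests on 0 of 6 Gzmc-high cells with a UMI, so the added CPM of 1 sets its size. In CD8 T cells the cell cycle list was high in both classes, with sums at day 7 of 8306 CPM in Gzmc-high and 5979 CPM in Gzmc-low cells. Glycolysis genes had 6 of 15 on the larger side, and Hk2 differed by 2.80 (edgeR adjusted p = 0.000857), a call lost without day 7.

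The chemokine Ccl3 went in opposite directions in the NK gate and in CD8 T cells. Ccl3 had contrasts of -2.46, -2.39 and -1.59 in the NK gate and 1.16, 0.94 and 1.33 in CD8 T cells (difference -3.12 on the log2 scale, SE 0.24, edgeR adjusted p = 1.91e-07), below 0 in each library of the former and above 0 in each of the latter. Its call held in all 13 alternatives. Ccl4 differed by -1.79 (adjusted p = 0.000536). Il2ra had contrasts of 2.17, 3.91 and 3.13 against 0.24, 1.02 and 1.49 (difference 2.86 on the log2 scale, SE 0.57, edgeR adjusted p = 0.00595), a call lost without day 7, with no library block and with cells thinned, where the difference was 0.77 (adjusted p = 0.947). Of 16 granzyme and killing genes, 6 had a smaller contrast in the NK gate and 0 a larger one: Gzmb had 0.25, 1.14 and 0.06 against 1.17, 1.57 and 2.06 (difference -1.14 on the log2 scale, SE 0.28, edgeR adjusted p = 0.0249), with the call lost in 6 of 13 alternatives. For Gzma the difference did not pass (adjusted p = 0.225), nor for Klf2 (adjusted p = 0.273), which was lower with Gzmc in all 3 libraries of both gates.

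**Figure D5:**
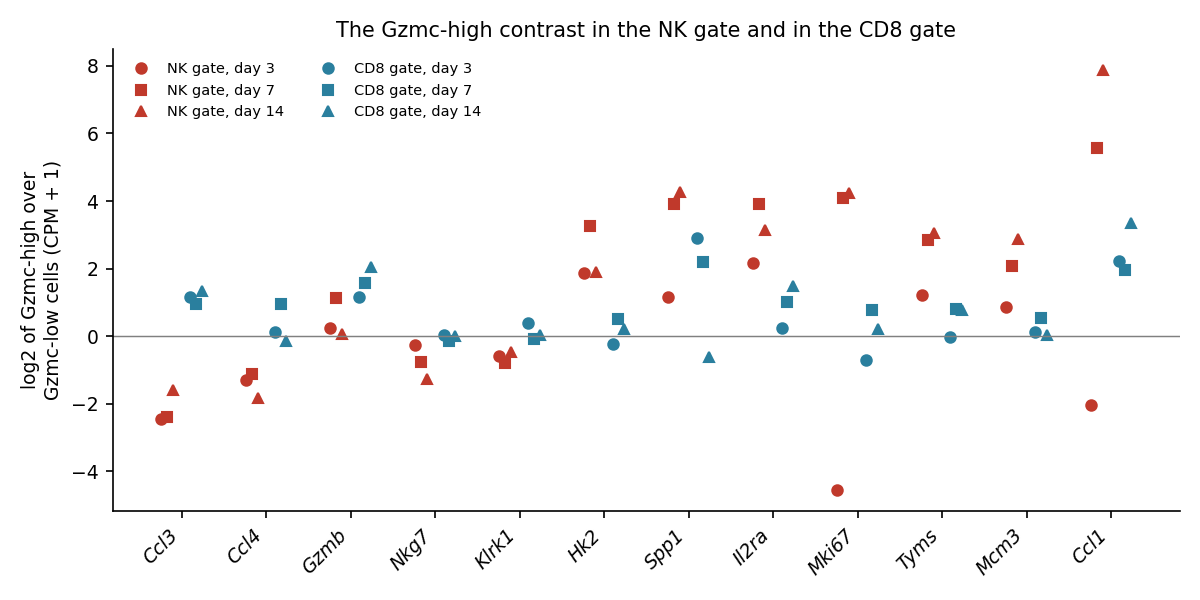
The log2 ratio of CPM plus 1 in Gzmc-high over Gzmc-low cells (vertical axis) for 12 genes (horizontal axis) in the NK gate (red) and in CD8 T cells (blue); circles, squares and triangles are days 3, 7 and 14. Ccl3 lies below 0 in the NK gate and above 0 in CD8 T cells in every library.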

How the data were processed

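The authors deposited raw UMI counts per gene and barcode in 3 libraries; the submitters' processing notes name Cell Ranger 4.0.0 and the build mm10. Cells were summed per library, gate and Gzmc class. The sums held 49374, 568437 and 360688 UMIs in Gzmc-high and 973109, 2134417 and 753389 UMIs in Gzmc-low cells at days 3, 7 and 14. Summed counts were tested with edgeR 4.0.16 (TMM, filterByExpr, quasi-likelihood F-test, library as block, Benjamini-Hochberg over all genes tested, rule genes left out), with DESeq2 1.42.0 as alternative. Gates use 0 counts of marker genes, so a marker lost at low depth passes. A gene under the limit of filterByExpr in every sum of 1 class entered the test only if every sum of the other class reached that limit. Per-library ratios use CPM plus 1. The members and gene lists were chosen with earlier results of these data known. Genes named are the 12 highest and 12 lowest that passed with the same sign in 3 libraries and at least 50 UMIs, up to 6 per list, 6 each way for the interaction and between days, and the rule's genes; others were chosen after their values were seen. Doublets were scored with the scrublet method in scanpy 1.11.5 per library; the automatic threshold marked 1, 7 and 3 barcodes, so the highest scores, taken at 0.8% per 1000 barcodes (99, 71 and 94 barcodes), were treated as doublets in an alternative only. On simulated data of the Gzmc-high contrast (5942 genes), 98.0% of genes raised by 2 on the log2 scale and 64.0% of those raised by 1 were called, 84.1% and 48.9% of those lowered by 2 and 1, and 0.139% of unchanged genes. The simulated sums came from the kind of model that was then tested, with the fitted dispersions and no difference between days. They held no single cells and no choice of cells by Gzmc, so the rates do not cover errors from these. Alternatives changed the Gzmc cut, depth, gate, doublets, shared barcodes, filter, scaling, tool and block, and left out each library and the top cell of each gene; removing cells with Mki67 or Top2a UMIs and, between days, shared barcodes was added after seeing the data. Of 32285 gene IDs, 99.8% matched GENCODE M21, used for coordinates. Some genes that the rule names are not reported here.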

Additional observations from a re-analysis of the deposited data

Results flagged for a closer look

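The Gzmc-high contrast differed between the NK gate and CD8 T cells, by the interaction test over 3 libraries, for 5 of the 6 genes with the largest and for the 6 with the smallest difference. On the log2 scale the difference (NK gate minus CD8 T cells) was 6.59 for Penk (adjusted p = 0.00313), 4.48 for Ccl1 (adjusted p = 0.000857), 4.41 for Id3 (adjusted p = 0.0297), 4.37 for Fam83d (adjusted p = 0.0373) and 4.23 for Ccnb1 (adjusted p = 0.0071), all from edgeR. Penk encodes the opioid precursor proenkephalin, and its log2 contrasts were 0.00, 3.73 and 2.67 in the NK gate and -0.85, -2.33 and -3.37 in CD8 T cells. The smallest differences were -3.89 for Sgk1 (adjusted p = 0.00233), -3.84 for Entpd1 (adjusted p = 0.0282), -3.63 for Hspa1a (adjusted p = 0.0321), -3.41 for Myo6 (adjusted p = 0.00743), -3.12 for Ccl3 (adjusted p = 1.91e-07) and -2.84 for Aldh2 (adjusted p = 0.0273). The call of Ccl3 held in all 13 alternatives, while Hspa1a kept its call in 4 of 13, Entpd1 in 5 of 12, Id3 in 6 of 12 and Aldh2 in 7 of 12. For Hspa1a the contrast was 2.38, -3.69 and -2.72 in the NK gate and 0.89, 0.65 and -3.91 in CD8 T cells, so 1 of 3 libraries had the sign of the fit.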

How the results depend on the processing

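Of 1788 checks of genes named in the text under single alternatives, 1494 kept direction and side of the threshold and 275 lost their call. In 10 a gene that had not passed then passed, and 9 reversed. The reversals were Prf1 with cells thinned (-0.26), Tbx21 with cells thinned (0.13), Itga1 under the stricter T cell gate (0.031) and without day 14 (-1.47 without day 7 to 0.35), Xcl1 under that gate (-0.27), Trbc2 under that gate (-0.49), without the top cell (-0.13) and without day 7 (-0.37, to 0.69 without day 14), and the Prf1 difference from CD8 T cells without day 3 (-1.03 without day 7 to 0.048). Leaving out 1 library gave 92 to 984 higher and 61 to 763 lower genes in the Gzmc-high contrast, and 59 to 229 higher and 10 to 90 lower in its difference from CD8 T cells. Counts of higher and lower genes in the contrast were 169 and 120 with DESeq2, 77 and 67 with cells thinned (1850 genes tested), 337 and 274 under the stricter gate, 94 and 68 without cells holding Mki67 or Top2a, and 426 higher with cells of 5000 UMIs or more. For the difference, no filter gave 374 higher, DESeq2 34 lower, no library block 128 and 20, thinning 13 and 7, cells of 5000 UMIs or more 126 and 28, and removal of shared barcodes 92 and 20. Between days, a minimum of 100 UMIs gave 64 lower at day 7 than day 3, and 51 higher and 58 lower at day 14 than day 7. Without the top cell of each gene the counts were 200 and 25, and 128 higher. Those counts were shifted by the removal itself, since CPM kept the full totals and day 3 lost the largest part of its UMIs. The shares of Gzmc-high cells were 6.90%, 11.7% and 20% among cells of 5000 UMIs or more, 8.47% at day 3 with thinning and 5.76% at day 7 with 10 or more UMIs. The difference from CD8 T cells was not run with Gzmc per 10000 UMIs, Gzmc at 10 or more, the stricter gate or without cells holding Mki67 or Top2a, where a sum had under 5 cells. No paired analysis was possible because the labels give 1 library per day; within the Gzmc-high contrast the library itself was the block, and without it 635 genes were higher and 503 lower. The 6 cells of day 3 limit what that library can show.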
